A study of Mus musculus with 4 samples.

Results

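Accessible chromatin at 10 leukocyte integrin genes was described in sorted mouse brain parenchymal macrophages. The genes were Itgam, Itgal, Itgax, Itgb2, Itga4, Itga6, Itgav, Itgb1, Itgb5 and Itgb8. A merged peak was given to one of them when its centre lay inside the gene, or when that gene was the nearest protein-coding gene within 100000 bp. This took 129 of the 74695 merged peaks, and all 10 genes had at least 3. By the same rule, 15255 of 21887 protein-coding genes had a merged peak. No value of the comparison between the cell groups entered the choice of peaks.

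The study held 4 ATAC-seq libraries in 2 groups of 2, labelled MDM and YSM. The title speaks of monocyte-derived macrophages, which MDM was taken to stand for, while YSM is left unexplained by the labels. Both groups carried the genotype label Ms4a3-Ai9 and the treatment label DR-3x, whose meaning is not given, so no group without that treatment was analysed here. Ms4a3 is switched on in progenitors of granulocytes and monocytes, and the Ai9 reporter allele makes cells red-fluorescent where Cre has been active. The age of the mice is not stated, nor is the number of animals behind each library.

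Integrins are cell-surface adhesion receptors made of an alpha and a beta chain. The β2 chain, encoded by Itgb2, is found on leukocytes and pairs with the alpha chains of Itgal (forming LFA-1, which binds ICAMs), Itgam (forming Mac-1 or complement receptor 3, the CD11b antigen used to sort microglia and other myeloid cells) and Itgax (the CD11c antigen). The β1 chain of Itgb1 pairs among others with the α4 chain of Itga4, which binds VCAM-1 and fibronectin, and with the laminin-binding α6 chain of Itga6. The αv chain of Itgav pairs with β1, with the vitronectin-binding β5 chain of Itgb5 and with the β8 chain of Itgb8, and αvβ8 frees active TGF-β, on which microglia depend.

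The assay inserts adapters into open DNA with the Tn5 transposase, so that each peak marks an accessible interval. Each merged interval carried the number of library-level peaks, here called subpeaks, that had been combined into it. An interval with at most 3 subpeaks lacked a call in at least 1 of the 4 libraries. One with 4 or more can hold a call from every library, though more than 1 call per library is possible. No level per library was analysed, so no spread between replicates stands beside the counts below. Number and breadth of peaks say where chromatin was accessible and not how strongly a gene was transcribed. As a check on the sorted population, all 9 macrophage or microglia marker genes looked up had a merged peak inside the gene or within 1000 bp of it. Of the other markers, 0 of 4 neutrophil genes and 2 of 4 neuron, glia and vessel genes (Gfap and Mog) had one. The share of all protein-coding genes with a peak this close was not computed. A merged peak was assigned to 15255 of the 21887, so the check is weak. A further peak assigned to the myelin gene Mog, 5472 bp from it (chr17:37028764-37028977, 4 subpeaks), was in the authors' YSM list of differential peaks, and its part in any result was not tested.

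No integrin peak was in either of the authors' differential lists. The MDM list held 0 of the 129 peaks and the YSM list also 0, where 0.145% and 1.48% of all merged peaks were listed. A count of 0 among 129 peaks allows a share of up to 2.33% (3 counts of the total), which is above both background shares. A share of 129 peaks equal to the background would come to 0.187 MDM-listed and 1.91 YSM-listed peaks, so the absence of listed peaks is near what the lists hold anywhere and is not a result about integrins. By gene, 0 of the 10 held an MDM-listed and 0 a YSM-listed peak, against 0.538% and 4.29% of the 15255 protein-coding genes with a merged peak.

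The listed peak closest to an integrin gene was a YSM-listed peak 95386 bp from Itgb2 (chr10:77434692-77435195, 4 subpeaks), which lay closer to the protein-coding gene Gm51791. For Itgb5 the nearest YSM-listed peak was 299126 bp away, at Kalrn, and for Itgal it was 424158 bp away, at Taok2. The same YSM-listed peak, at Inpp5f, was nearest to both Itgax, at 450170 bp, and Itgam, at 482336 bp. Itgb1 was the exception in order, with an MDM-listed peak at 1906792 bp and a YSM-listed peak at 3894789 bp. Within 1000000 bp of the gene, 0 of the 10 integrin genes had an MDM-listed peak and 6 had a YSM-listed peak, against 9.31% and 54.0% of the 15255 protein-coding genes with a merged peak. The MDM list held 108 peaks and the YSM list 1104. A YSM-listed peak was nearer than an MDM-listed one at 9 of the 10 integrin genes, and at 85.6% of the 14020 protein-coding genes with a merged peak on chromosomes that held peaks of both lists.

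**Figure D1:**
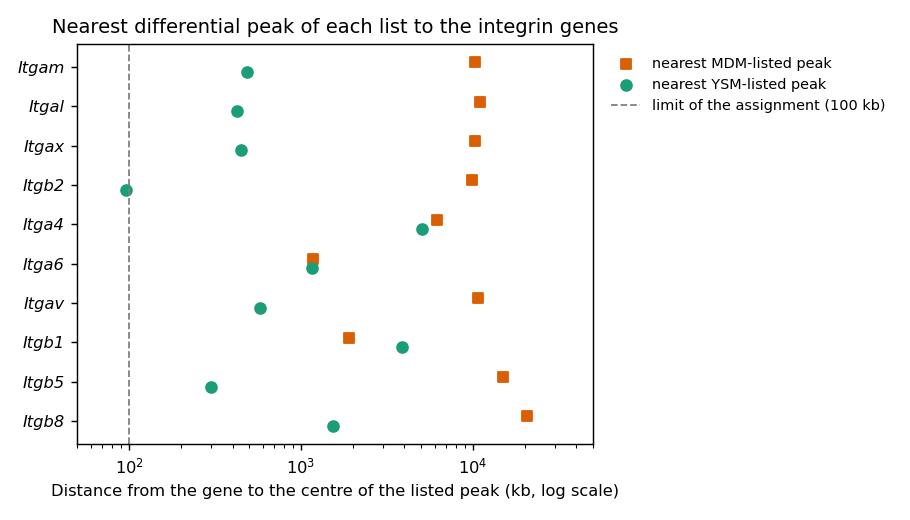
Distance from each of the 10 integrin genes to the centre of the nearest MDM-listed (squares) and YSM-listed (circles) peak, in kb on a log scale, with the limit of the assignment as a dashed line. The circle at Itgb2, 95386 bp from the gene, is the 1 point inside that limit, and its peak lay nearer to another gene.

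A merged peak lay over the promoter window of 5 of the 7 integrin genes for which one was at hand, and over neither that of Itgam nor that of Itgax. The windows, from RefSeq on GRCm38.p6 (the assembly behind mm10), run from 250 bases before to 50 after the start. Among 17492 protein-coding genes with a window, 52.7% had a merged peak over at least 1 window. Itgal, Itga6 and Itgb2 were not among the 7. The 4 windows below show both cases in these cells, with the β2 partners Itgam and Itgax first and the broadly expressed beta chains Itgb1 and Itgb5 after them. Capitals mark matches, on either strand, to GAGGAA (the core of sites bound by the myeloid factor PU.1), TGTGGT (Runx), GGGCGG (Sp and KLF factors) and TGANTCA (AP-1).
Itgam: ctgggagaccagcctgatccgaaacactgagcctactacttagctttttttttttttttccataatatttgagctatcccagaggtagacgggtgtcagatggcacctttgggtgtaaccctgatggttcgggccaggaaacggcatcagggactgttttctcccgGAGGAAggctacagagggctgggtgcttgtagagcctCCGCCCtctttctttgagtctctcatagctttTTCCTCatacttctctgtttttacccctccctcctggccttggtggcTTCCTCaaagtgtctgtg
Itgax: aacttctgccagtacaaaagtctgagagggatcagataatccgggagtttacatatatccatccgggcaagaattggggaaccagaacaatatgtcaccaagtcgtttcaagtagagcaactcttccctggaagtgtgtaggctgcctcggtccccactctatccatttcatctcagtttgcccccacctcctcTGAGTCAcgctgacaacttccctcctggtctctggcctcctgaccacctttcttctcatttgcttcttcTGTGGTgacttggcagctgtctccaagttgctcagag
Itgb1: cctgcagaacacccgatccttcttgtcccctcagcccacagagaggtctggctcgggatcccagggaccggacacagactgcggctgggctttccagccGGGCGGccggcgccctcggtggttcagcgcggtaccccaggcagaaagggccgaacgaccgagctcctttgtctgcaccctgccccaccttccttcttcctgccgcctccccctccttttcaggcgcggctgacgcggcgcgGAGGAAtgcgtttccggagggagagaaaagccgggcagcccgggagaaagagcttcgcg
Itgb5: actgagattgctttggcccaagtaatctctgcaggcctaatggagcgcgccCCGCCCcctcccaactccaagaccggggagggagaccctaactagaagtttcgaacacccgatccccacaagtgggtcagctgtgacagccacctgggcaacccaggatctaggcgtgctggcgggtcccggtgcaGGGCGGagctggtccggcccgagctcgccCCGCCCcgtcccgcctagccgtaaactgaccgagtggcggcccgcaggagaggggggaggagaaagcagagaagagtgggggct

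The Itgam window (chr7:128062390-128062689, plus strand) had no peak over it. The nearest peak of the gene (chr7:128063397-128063604, 4 subpeaks) began 757 bp downstream of the start, and the nearest one upstream had its centre 3496 bp away. GAGGAA was found 3 times in this window, 1 time as written and 2 times as its reverse complement TTCCTC, and GGGCGG once. The Itgax window (chr7:128129300-128129599, plus strand) also had none over it, and the nearest peak (chr7:128128970-128129199, 4 subpeaks) ended 351 bp before the start. That window held 1 TGTGGT and 1 TGANTCA match.

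The Itgb1 window (chr8:128685404-128685703, plus strand) was covered over 206 of its 300 bases by a peak of 7 subpeaks (chr8:128685498-128685789), centred 11 bp upstream of the start. It held 1 GAGGAA and 1 GGGCGG match. The Itgb5 window (chr16:33829415-33829714, plus strand) lay under 2 peaks of 4 subpeaks each, which together covered 260 bases, and it held 3 GGGCGG matches. At Itgav the start used for the window lies inside the gene as annotated, and a peak of 4 subpeaks (chr2:83724221-83724606) spanned it, covering 226 bases. At Itga4 the peak over the start combined 3 subpeaks (chr2:79255295-79255529) and covered 181 bases. At Itgb8, on the minus strand, a peak of 5 subpeaks (chr12:119238428-119238769) covered 99 bases and its nearest base was 152 bp upstream of the start.

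Letter matches were common in promoters at large. Of 21263 windows of protein-coding genes, 27.4% held GAGGAA, 15.0% TGTGGT, 46.2% GGGCGG and 6.99% TGANTCA. The letters CACGTG (E-box, 7.84% of windows) and TTGCNNAA (C/EBP, 10.2%) matched none of the 7 integrin windows. The 4 motifs with matches do not overlap each other in the sequences shown. GAGGAA was present in windows with a peak (Itgav, Itgb1) and without one (Itgam).

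The β2 genes ranged from 15 peaks at Itgam to 3 at Itgax. Itgam, which encodes αM (chromosome 7, 128062640 to 128118491), had 10 peaks with their centre in the gene and 5 below it, up to 20061 bp away. Its subpeaks were uneven, with 8 of the 15 peaks combining at most 3 and the highest combining 5 (chr7:128059035-128059253). The 10 intragenic peaks had 4, 4, 1, 2, 4, 1, 1, 2, 4 and 1 subpeaks in order along the gene.

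Itgal, which encodes αL (chromosome 7, 127296139 to 127335137), had 5 peaks, all at or near its lower-coordinate end. They comprised a peak of 4 subpeaks and 462 bp over that end (chr7:127296093-127296554), 2 inside the gene and 2 below it at 5740 and 7994 bp, with 5 and 4 subpeaks. The last intragenic peak ended at 127303275, and the rest of the gene had none. Itgax, which encodes αX (chromosome 7, 128129526 to 128150657), had 3 peaks, with 4, 4 and 1 subpeaks. It begins 11034 bp above the end of Itgam with no protein-coding gene between them. A count by nearest gene therefore splits their shared neighbourhood, and counting every peak within 50000 bp of a gene gave 13 for Itgax and 20 for Itgam.

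Itgb2, the shared beta chain (chromosome 10, 77530329 to 77565708), had no peak with few library-level calls. All 8 of its peaks had 4 or more subpeaks, namely 7, 4, 4, 4, 4, 4, 4 and 6 in order along the chromosome. Each of the other 9 genes had at least 1 peak with a single subpeak. The peak at the lower-coordinate end of Itgb2 (chr10:77530069-77530533) combined 7 subpeaks over 465 bp, and a second broad peak of 437 bp followed it at 77530855 to 77531291. At the other end, peaks of 4 and 6 subpeaks lay 258 and 1110 bp above the gene. The gene was chosen for mention after its values were seen, and over all merged peaks 57.7% had 4 or more subpeaks.

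**Figure D2:**
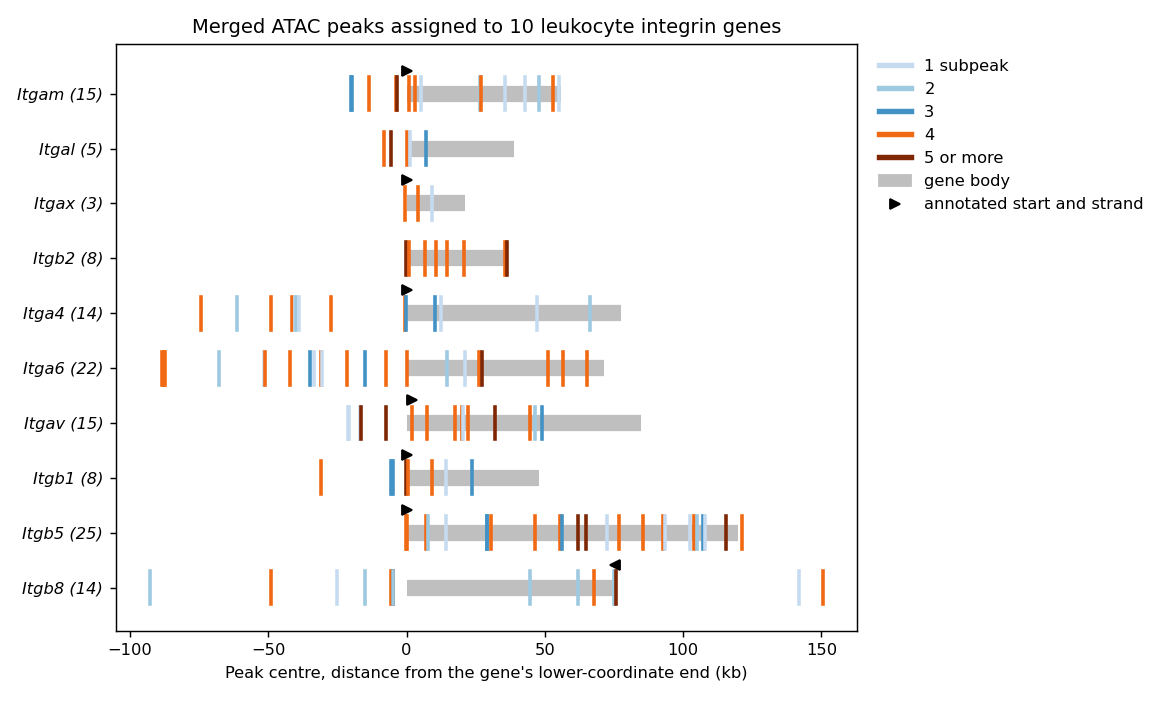
Position of the 129 merged peaks along the 10 integrin genes, in kb from the lower-coordinate end of each gene, with gene bodies as grey bars and tick colour giving the number of subpeaks. Arrowheads mark the annotated start for the 7 genes that have one, and bracketed numbers give peaks per gene. Itga6 and Itga4 have long runs of peaks below the gene and Itgb8 has peaks on both sides, whereas those of Itgb5 fill the gene body.

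The α6 and α4 genes, like Itgb8 described below, had most of their peaks outside the gene body. Itga6, which encodes α6 (chromosome 2, 71786886 to 71858427), had 22 peaks, of which 14 lay below the gene at 7329 to 88347 bp and 8 inside it. Of the 22, 14 combined 4 or more subpeaks, among them the 3 farthest ones, which form a group at 71698354 to 71699664. The peak at the lower end of the gene (chr2:71786884-71787119) had 4 subpeaks. The widest, at 443 bp, was the one closest to the gene from below (chr2:71779336-71779778).

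Itga4, which encodes α4 (chromosome 2, 79255426 to 79333114), had 14 peaks, 10 of them below the gene and upstream of its start, up to 74448 bp away. Here 9 of the 14 combined at most 3 subpeaks, with a median of 2.5, and none had more than 4. Those with 4 included a peak of 407 bp at 79213833 to 79214239, followed by peaks of 1, 2 and 1 subpeaks up to 79216601. Inside the gene the 4 peaks had 3, 1, 1 and 2 subpeaks. The gene Cerkl overlaps the last 624 bp of Itga4, and 0 merged peaks had their centre in that overlap.

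Itgb1, which encodes β1 (chromosome 8, 128685654 to 128733579), had 8 peaks in a long territory. A territory is the stretch nearer to a gene than to any other protein-coding gene, gene body included and up to 100000 bp out. That of Itgb1 was 238 kb, and its 8 peaks gave 3.36 per 100 kb of territory, the lowest such density among the 10 genes. Counted inside the gene body only, Itgb1 had 8.35 peaks per 100 kb of gene. This was above Itgal at 7.69, Itgb8 at 5.3 and Itga4 at 5.15, and below the rest. Beside the peak of 7 subpeaks at the start, a peak at 128686067 to 128686275 had 4, and 2 peaks of 3 subpeaks lay 4848 and 5495 bp below the gene. The farthest peak, at 30814 bp, had 4.

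The αv group showed its peaks in different places. Itgav (chromosome 2, 83722303 to 83806917) had 15 peaks, 10 inside the gene and 5 below it at 7445 to 21071 bp. The peaks of 5 subpeaks were at 83705786 to 83706022, at 83714660 to 83715057 and inside the gene at 83754151 to 83754622, which at 472 bp was its widest. No peak lay above the gene.

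Itgb5 (chromosome 16, 33829665 to 33949338), the longest of the 10 genes at 119674 bp, had the most peaks, 25, and 23 of them had their centre inside the gene. Its 19.7 peaks per 100 kb of territory were also the highest density of the 10. The peak with most subpeaks among all 129 was here, with 8 over 517 bp (chr16:33891534-33892050). Of the 25 peaks, 14 combined 4 or more subpeaks and 5 had a single one. Peaks were spread along the whole gene, and the longest gap between neighbouring ones was 15347 bp.

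Itgb8 (chromosome 12, 119162803 to 119238276, minus strand) had 14 peaks scattered over 243682 bp. Of these 4 were inside the gene, 7 below it and so beyond its end, and 3 above it and so upstream of its start. Most combined few calls, with 6 of the 14 at exactly 2 subpeaks and a median of 2.0. Those with most were a peak of 6 subpeaks beyond the end of the gene (chr12:119157587-119157932) and the one of 5 near its start. The longest gap between neighbouring peaks was 65711 bp, wider than between neighbouring peaks of any other of the 10 genes. Stretches beyond the outermost peaks of a gene were not counted as gaps.

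**Figure D3:**
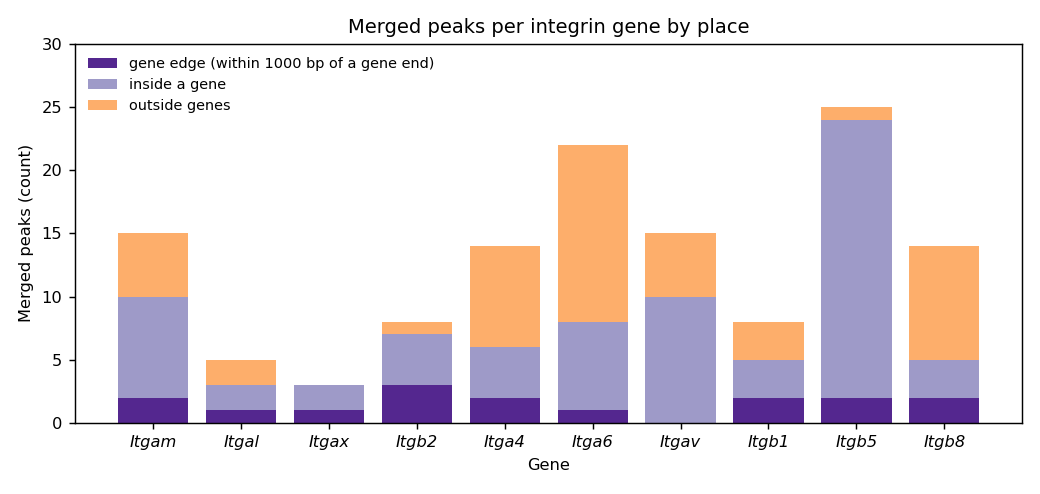
Number of merged peaks per integrin gene, stacked by place: at a gene edge, meaning within 1000 bp of either end of a protein-coding gene, elsewhere inside a gene, or outside genes. Itgb5 has 22 peaks inside a gene and 1 outside, whereas Itga6 has 7 inside and 14 outside.

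Peak numbers over the 10 genes were set beside those of protein-coding genes in general. The integrin median was 14.0 peaks per gene, against 3.0 over the 15255 genes with a merged peak and 4.0 over the 6535 such genes of the same range of length (21132 to 119674 bp). Per 100 kb of territory the integrin median was 10.9 peaks, against 7.14 over all genes with a peak and 5.71 over those of similar length. In the lists described below it was 11.8 for activation and adaptor genes, 9.30 for other integrin subunits and 6.73 for ligand genes. A density above that of all genes was thus not particular to the 10 integrin genes. Ordered by density, the genes ran from Itgb5 at 19.7 through Itgam at 17.2, Itgb2 at 16.0, Itgav at 12.9, Itga6 at 12.3, Itgal at 9.43, Itga4 at 7.91, Itgax at 7.89 and Itgb8 at 5.60 to Itgb1 at 3.36. Without values per library, it cannot be said which neighbours in this order differ beyond their error. Itgb5 exceeded 90.2% of all genes with a peak in density and Itgb1 exceeded 23.4% of them. These values describe 10 genes, and no test was run.

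**Figure D4:**
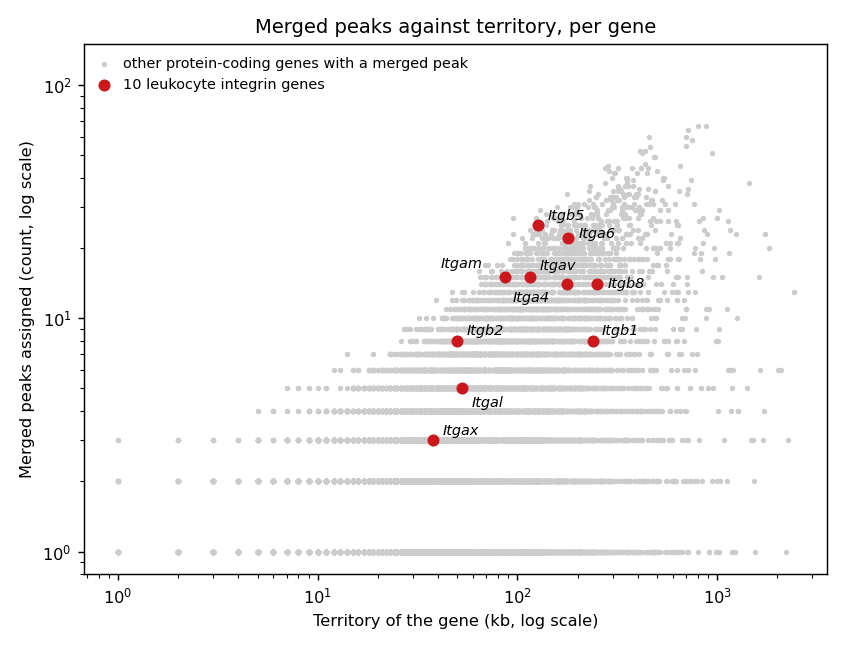
Merged peaks assigned to a gene against the territory of that gene, both on log scales, for the 10 integrin genes (red) and for protein-coding genes with a merged peak (grey). Itgb5 with 25 peaks and Itgam with 15 sit high for their territory, and Itgb1 with 8 peaks sits low.

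By place, most integrin peaks lay away from gene edges, as did most peaks of all genes. Of the 129 peaks, 16 (12.4%, 95% Wilson interval 7.78 to 19.2) were at a gene edge. Over the 71172 peaks assigned to any protein-coding gene the share was 22.6%, and over genes in the members' range of length 20.7%. In the lists described below it was 12.6% for other integrin subunits, 11.1% for activation and adaptor genes and 23.6% for ligand genes. A low edge share was thus not particular to the 10 genes. The 4 β2 genes had 7 of their 31 peaks at an edge (22.6%) and the other 6 genes 9 of 98 (9.18%). The interval covers counting error only, and neighbouring peaks are not independent. Inside genes lay 50.4% of integrin peaks, against 48.0%. Outside genes lay 37.2% of integrin peaks, against 29.4%. The 56 integrin peaks with their centre beyond the gene body were at a median of 20400 bp from it, against 9881 bp for peaks of all genes. On the lower-coordinate side lay 50 of the 56 and on the other 6. Assignment to the nearest gene limits this split. The next gene above lay 11034 bp from Itgam, 7657 from Itgal, 14787 from Itga6, 5645 from Itgav and 5443 from Itgb5. Below Itga6 and Itga4 the next gene was 240131 and 326639 bp away. Gaps below were short too at Itgb5 (9735 bp), Itgax (11034), Itgb2 (13404) and Itgal (22079). Above Itgb2 and Itgax the gaps were 15946 and 23275 bp, and Cerkl overlaps the upper end of Itga4. Itgb1 and Itgb8 had wide gaps on both sides, of 246439 and 152121 bp above. How far the spacing of genes accounts for the split was not tested. The 4 β2 genes alone had 11 peaks beyond the gene body, at a median of 3791 bp, and the other 6 genes had 45 at a median of 30580 bp. Territory bounds these distances. Its median was 51.5 kb for the β2 genes and 178 kb for the other 6. For all 10 it was 121.5 kb, against 48.5 kb over all genes with a peak. Distance apart from territory was not tested.

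In the number of subpeaks the integrin peaks were close to the rest. At most 3 subpeaks were combined in 57 of the 129 integrin peaks (44.2%, 95% Wilson interval 35.9 to 52.8), against 41.8% of the peaks of all genes, and the median was 4 in both. Single-subpeak intervals made up 20.2% of integrin peaks, against 20.0%. At gene edges, at most 3 subpeaks were combined in 3 of 16 integrin peaks (18.8%), against 26.2% over all genes, a difference that was not tested on so few peaks. The corresponding shares inside genes were 49.2% for integrin peaks and 47.3% over all genes.

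**Figure D5:**
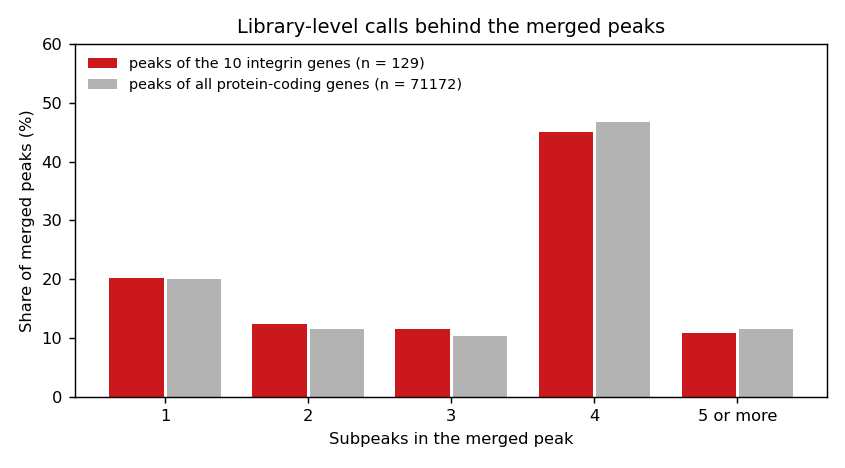
Share of merged peaks, in percent, by the number of subpeaks they combine, for the 129 peaks of the integrin genes (red) and the 71172 peaks of all protein-coding genes (grey). The bars of both sets are close in every class, with 45.0% and 46.7% at exactly 4 subpeaks.

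Integrin subunits outside the 10 genes formed a list of their own. Of 16 further alpha and beta chain genes, 15 had merged peaks, beside 15255 of all 21887 protein-coding genes. The median was 4.0 over those 15, with 127 peaks in all. Itga9 had 37, Itga8 20 and Itga1 11. Itgb6, the beta chain of epithelial αvβ6, had 0. None of the 127 peaks was MDM-listed and none YSM-listed (0 each, which allows a share of up to 2.36%, above the background shares of 0.145% and 1.48%). Itgad, which encodes the further β2 partner αD and follows Itgax on chromosome 7, had 4.

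Activation and adaptor genes had the most peaks of the integrin pathway lists, and the only listed ones. Of 36 activation and adaptor genes, 32 had merged peaks, beside 15255 of all 21887 protein-coding genes. The median was 10.0 over those 32. The endocytic adaptor gene Dab2 had 28, the exchange factor gene Vav3 27 and the Src-family kinase gene Lyn 26. Of the 369 peaks of this list, 1 was MDM-listed (0.271%) and 2 were YSM-listed (0.542%), beside the backgrounds of 0.145% and 1.48% given above. A share equal to the background would come to 0.534 MDM-listed and 5.45 YSM-listed peaks. Counts this small are not a result about these genes. The MDM-listed peak was inside Vav3 (chr3:109478475-109478727, 4 subpeaks). The YSM-listed ones, each of 2 subpeaks, were inside Lims1, which encodes the adaptor PINCH1 (chr10:58418386-58418592), and 123 bp from Tln2, a talin gene (chr9:67634011-67634326). Tln1 and Fermt3, which encode the talin and kindlin that activate leukocyte integrins and are named here for that role, had 6 and 5 peaks with 0 listed.

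Ligand genes were the last list. Of 31 genes for integrin ligands and for the presentation of TGF-β, 23 had merged peaks, beside 15255 of all 21887 protein-coding genes. The median was 5.0 over those 23. Those genes held 110 peaks in all, of which 0 were MDM-listed and 0 YSM-listed. That count allows a share of up to 2.73%, above the 0.145% and 1.48% of all merged peaks, so it cannot be told apart from the background. The basement membrane collagen gene Col4a1 had 16 and the α4β1 ligand gene Vcam1 9. Col4a2, Npnt and Nrros, which encodes the protein that holds latent TGF-β on microglia, had 7 each. The laminin alpha chain genes Lama1, Lama2 and Lama4, named after their values were seen, had 0 each, and Lama5 had 4.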

How the data were processed

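ATAC-seq peaks of 4 libraries (2 MDM, 2 YSM) were used. The authors processed reads with Trimmomatic 0.39, Bowtie2 2.2.5, Picard and HOMER on mm10, per the submitters' processing notes, and merged peaks called per library with HOMER mergePeaks, per the file headers. Peak caller settings and any Tn5 shift were not stated. The deposited lists hold intervals without levels, depth or p-values. Membership of the 2 differential lists, which their names tie to DESeq2, is the authors', and a listed peak was read as more accessible in the group that names its list. All 15127 intervals with 1 subpeak were 201 bp wide, and 0 were wider than 201 bp per subpeak.

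Peaks were assigned with Python 3.11.15 and pandas 2.3.3 to 21887 protein-coding genes of the RefSeq table of GRCm38.p6, matched by symbol (10 of 10). Strand came only from promoter windows. Territories were sampled every 1000 bp. Exons, introns and untranslated regions were not told apart. The assignment was tested on simulated data. No test between groups was run, since no level per library was used. All 10 genes are named. Genes of the other lists are named if they held a listed peak or were among the 3 with most peaks (ties kept), and others are named for their role or place. Lymphocyte markers are not reported here. Members and lists were chosen with earlier results of these data known. Alternatives changed the distance limit, gene kinds, reference point, exclusivity, subpeak minimum, neighbour merging and list overlap.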

Additional observations from a re-analysis of the deposited data

How the results depend on the processing

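Of 72 values under an alternative, over 10 results, 63 stayed close to the first value (within 1.5 times or, for shares, within the 95% Wilson interval) and 9 moved. The MDM-listed and YSM-listed counts stayed at 0 under all alternatives run. The median number of peaks per integrin gene was 8.0 with a limit of 10000 bp and 8.5 with genes of every annotated kind, in place of 14.0. Under these settings the share inside a gene was 69.15% and 67.4%, in place of 50.4%, and the median distance of peaks outside the gene was 3496 and 4848 bp, in place of 20400 bp. The first setting drops peaks beyond its limit by construction, and the second drops those nearer to another kind of gene, such as all 5 outside Itgam. The share at a gene edge was 20.1% with every peak within 50000 bp shared between genes, which adds peaks at the ends of neighbouring genes. The share with at most 3 subpeaks was 30.1% among peaks of at least 2 subpeaks and 32.65% with peaks within 1000 bp counted once, both by construction.

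No paired analysis was possible because the lists hold no value per library, and no value without a library was computed. Depth per library was not analysed here, and weakly open sites cannot be told apart from closed ones in a list of called peaks.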

Other observations

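Genes that do not code for protein lie among the integrin peaks. With genes of every annotated kind as candidates, the lncRNA gene Gm39866 took 6 of the 14 peaks of Itga4 and the lncRNA genes Gm17250 and Platr26 took 7 and 4 of the 22 of Itga6. Itgb5, Itgb2 and Itgax kept their 25, 8 and 3 peaks under that rule. Itgal kept 3 of 5, with 2 taken by the lncRNA gene Gm31897, and Itgam kept 10 of 15, with 5 taken by the pseudogenes Gm9299 and Gm22809.

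Several integrin peaks were close neighbours. Counting peaks within 1000 bp of each other once gave 98 sites in place of 129 peaks, with 17 in place of 25 at Itgb5 and 17 in place of 22 at Itga6. Itgax kept 3.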
